A study of Mus musculus with 2 samples.

Results

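The 10 genes described here encode the enzymes and regulators of de novo lipogenesis, and all 10 (Acly, Acaca, Acacb, Fasn, Elovl6, Scd1, Me1, Srebf1, Mlxipl and Thrsp) were found by symbol among the 35129 gene symbols of the tables. RNA was sequenced from hepatocytes isolated from C57BL/6 mice. The cells had received either an adenovirus for KLF14, a zinc finger transcription factor of the Krüppel-like family, or a control adenovirus labelled GFP. Both groups thus consist of infected cells, and they are called Ad-KLF14 and Ad-GFP below. The age and sex of the mice, the dose of virus, the time after infection and the fasting or feeding state are not given in the sources used here. The series' design text calls the control an empty vector. Each group holds 1 library, so no test between the conditions was possible. Every difference is between these 2 libraries, and the spread between cultures is unknown.

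De novo lipogenesis makes fatty acids from carbohydrate in the cytosol of the hepatocyte. ATP citrate lyase (Acly) releases acetyl-CoA from citrate, the acetyl-CoA carboxylases (Acaca and Acacb) turn it into malonyl-CoA, and fatty acid synthase (Fasn) builds palmitate from both with NADPH, part of which comes from malic enzyme (Me1). Elovl6 lengthens palmitate to stearate, and the desaturase Scd1 places a double bond in stearate and palmitate. In liver, the transcription factor SREBP-1 (Srebf1) carries the insulin signal to these genes, ChREBP (Mlxipl) carries the glucose signal, and Thrsp (Spot 14) is a small protein induced together with them. All 3 regulators act on overlapping sets of enzymes, and the activity of both transcription factors also depends on steps after transcription that a transcript level does not show.

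The genes did not move together. Fasn was 2.31-fold higher with Ad-KLF14, while Scd1 was 1.48-fold lower. Between them lay Thrsp, Acly and Mlxipl on the higher side and Srebf1 and Me1 on the lower side. The ratios of Acaca, Acacb and Elovl6, also between them, had counting intervals that held 1 at the scaling of the deposited values. Srebf1 and Mlxipl lay on opposite sides.

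The upstream sequences of 4 of the genes are shown before the values: those of the transcription factors, and those of the enzymes Fasn and Acly, which had the highest ratios among the enzymes. Each is the 250 bases before a transcription start in RefSeq, read 5′ to 3′ on the strand of the gene, in the mouse build GRCm38.p6. That build is not the mm8 build named in the submitters' processing notes. All 4 windows end just before the transcript begins, and the annotated start is the one nearest to the start of the longest coding transcript of the gene. The Fasn window lies at chr11:120824548-120824797 on the minus strand, the Acly window at chr11:100528001-100528250 on the minus strand, the Srebf1 window at chr11:60220628-60220877 on the minus strand and the Mlxipl window at chr5:135106641-135106890 on the plus strand. Capitals mark every match to 5 motifs on either strand: the GC box GGGCGG, the CACCC box written CACNCCC with N for any base, the CCAAT box CCAAT, the E-box CACGTG, and the sterol regulatory element TCACNCCAC. GC and CACCC boxes are the kind of sequence that proteins of the Sp and Krüppel-like families are known to bind.
Fasn: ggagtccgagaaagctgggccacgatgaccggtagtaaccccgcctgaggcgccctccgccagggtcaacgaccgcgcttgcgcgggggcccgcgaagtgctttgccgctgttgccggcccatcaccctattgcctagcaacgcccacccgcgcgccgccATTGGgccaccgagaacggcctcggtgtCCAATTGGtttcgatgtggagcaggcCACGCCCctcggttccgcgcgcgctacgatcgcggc
Acly: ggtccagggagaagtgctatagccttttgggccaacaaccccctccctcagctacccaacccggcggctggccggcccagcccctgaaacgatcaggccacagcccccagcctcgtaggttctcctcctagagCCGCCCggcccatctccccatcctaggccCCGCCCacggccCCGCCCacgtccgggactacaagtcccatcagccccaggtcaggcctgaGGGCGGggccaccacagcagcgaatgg
Srebf1: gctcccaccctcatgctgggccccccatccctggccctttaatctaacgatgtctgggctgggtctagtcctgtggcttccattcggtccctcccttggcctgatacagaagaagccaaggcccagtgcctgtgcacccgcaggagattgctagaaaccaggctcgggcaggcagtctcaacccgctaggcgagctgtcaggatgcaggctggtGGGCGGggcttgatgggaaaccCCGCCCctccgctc
Mlxipl: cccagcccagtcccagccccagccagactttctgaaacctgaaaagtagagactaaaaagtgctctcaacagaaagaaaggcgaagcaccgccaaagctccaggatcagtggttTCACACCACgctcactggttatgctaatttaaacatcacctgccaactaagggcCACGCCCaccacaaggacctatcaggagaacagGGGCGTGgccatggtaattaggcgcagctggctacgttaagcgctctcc

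The 2 enzyme windows held different motifs in the bases shown. In Fasn, positions counted from the start site, a CACCC box lay at -36 and CCAAT matches lay at -90, -62 and -59, the last 2 of which overlap. Acly held GC boxes at -117, -88, -76 and -27 and, after the start site and so outside the bases shown, a CCAAT match at 38. Srebf1 held GC boxes at -36 and -14 in the bases shown and, after the start site, a further GC box at 9. The Mlxipl window held CACCC boxes at -82 and -49 and a sterol regulatory element match at -136. RefSeq gave 3 start sites for Srebf1 and 2 for Mlxipl, genes that are known to use alternative first exons, and the FPKM value of a symbol does not tell the transcripts apart. The other Srebf1 starts lie 10133 and 1977 bases from that of the longest coding transcript, and the other Mlxipl start 17028 bases. Their windows are not shown, and which starts these cells used is not known.

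The other windows were searched over 300 bases, of which 250 lie before and 50 after the start. In all, 9 of the 10 genes had a window, and Scd1 had no entry. Srebf1, Mlxipl and Me1 had more than 1 window, which gave 13 in all. Among the 9 windows nearest to the longest coding transcript, 2 held a GC box (35.7% of all 32851 promoters in the table), 2 a CACCC box (29.2%), 5 a CCAAT box (37.4%), 0 the E-box (7.15%) and 1 the sterol regulatory element (1.24%). Over all 13 windows, 4 of the 9 genes held a GC box, 3 a CACCC box, 7 a CCAAT box, 1 (Mlxipl) the E-box and 1 the sterol regulatory element. The further genes with a GC box were Mlxipl, with 2 in its other window, and Me1, with 4 in its other window. A further window of Srebf1 also held GC boxes, at -65 and -6, with a CACCC box at -71 and a CCAAT match at -30. With so few windows these counts are a description only. Thrsp, with the second highest ratio of the 10 genes, held 2 CCAAT matches and neither a GC nor a CACCC box. The windows of Acaca and Acacb lie 22316 and 18983 bases from the start of the longest coding transcript, so other promoters of these genes were not searched.

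Levels are given in FPKM, reads per kilobase of gene model scaled to the library total, which allows genes to be compared within a library. The tables rest on 11151711 reads for Ad-KLF14 and 11311344 reads for Ad-GFP, totals that were recovered from the steps between the values. The targeted gene Klf14 stood at 13164 FPKM with Ad-KLF14 and at 0.298 FPKM with Ad-GFP, which fits the labels, and took 1.95% of the Ad-KLF14 reads. Of the 10 hepatocyte markers, all were measured in both libraries, with a summed level of 8399 FPKM with Ad-KLF14 and 10512 FPKM with Ad-GFP. Adipocytes are another cell type rich in lipogenic enzymes. Of 9 adipocyte markers, Adipoq, Lep, Retn and Cfd were listed at 0 in both libraries, Lipe (4.97-fold), Pparg (4.16-fold) and Cidec (2.31-fold) were higher with Ad-KLF14, Fabp4 stood at 1.68 FPKM with Ad-KLF14 and 2.34 FPKM with Ad-GFP, and Plin1 stood at 0.281 FPKM and was listed at 0 with Ad-GFP. A listed 0 may be a failed estimate, as Hmgcs1, a gene that hepatocytes use, was also listed at 0 in both. Since these are bulk samples, a lower level may stand for less RNA per cell or for fewer cells that express the gene, and the 2 cannot be told apart.

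**Figure D1:**
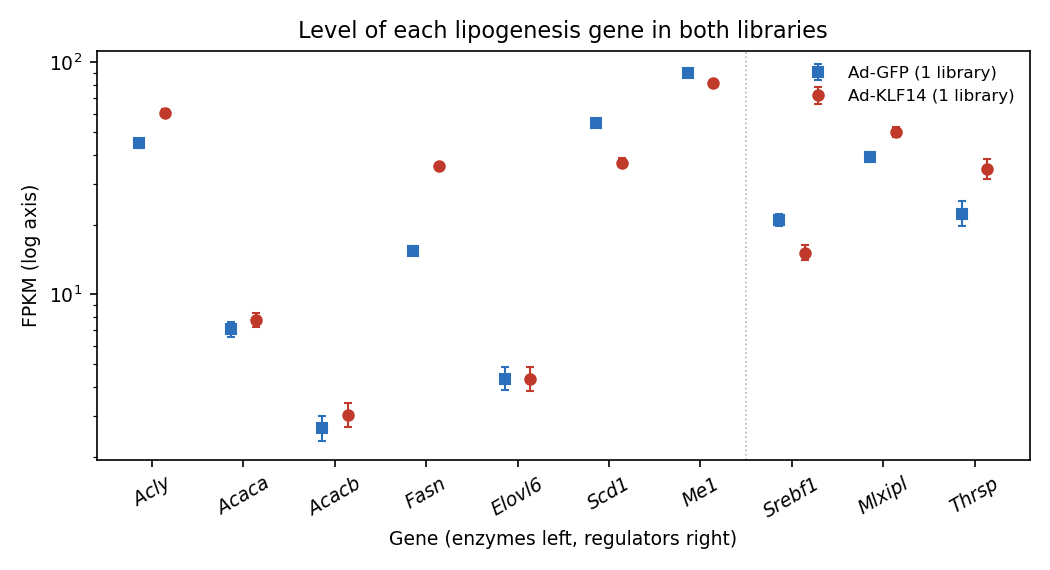
Level of each lipogenesis gene in FPKM (log axis) with Ad-GFP (squares) and Ad-KLF14 (circles), 1 library each, with enzymes left and regulators right; bars are 95% exact Poisson intervals of the reads. Fasn moves from 15.4 to 35.7 FPKM, Scd1 from 54.7 to 37.0 FPKM, and Elovl6 stays at 4.34 and 4.32 FPKM.

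Among the enzymes, Fasn, which carries out all steps of palmitate synthesis on a single polypeptide, stood at 35.7 FPKM with Ad-KLF14 and 15.4 FPKM with Ad-GFP. The ratio was 2.31, with a 95% counting interval of 2.19 to 2.45 from 3961 and 1736 reads. Such intervals are exact Clopper-Pearson intervals and cover counting error only, not differences between cultures. The level of Fasn thus differed by far more than counting error, and its log2 ratio of 1.16, taken on log2(FPKM + 1), lay at percentile 95.5 of the 12419 genes that averaged 1 FPKM or more.

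Acly stood at 60.8 FPKM with Ad-KLF14 and 44.8 FPKM with Ad-GFP, a ratio of 1.36 (95% counting interval 1.28 to 1.44). Acaca, the cytosolic carboxylase that makes malonyl-CoA for synthesis, stood at 7.74 and 7.08 FPKM, a ratio of 1.09 (0.988 to 1.21). Acacb, the carboxylase at the outer mitochondrial membrane whose malonyl-CoA limits fatty acid import, stood at 3.03 and 2.65 FPKM, a ratio of 1.15 (0.965 to 1.36). The enzymes before and after the carboxylase step were both higher with Ad-KLF14. The intervals of the carboxylases held 1 at the scaling of the deposited values. The other scalings multiply the Ad-KLF14 values by 1.02 to 1.07. Each of them lifts the lower bound of Acaca above 1, and the largest does so for Acacb. The upper bounds of the carboxylase intervals lie below the ratio of Fasn.

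Elovl6 was nearly level, at 4.32 FPKM with Ad-KLF14 and 4.34 FPKM with Ad-GFP, a ratio of 0.997 (0.844 to 1.18). Scd1, the main desaturase of liver, stood at 37.0 FPKM with Ad-KLF14 and 54.7 FPKM with Ad-GFP, 1.48-fold lower (1.40 to 1.57). Me1 had the highest level of the 10 genes in both libraries, 81.5 FPKM with Ad-KLF14 and 90.3 FPKM with Ad-GFP, and was 1.11-fold lower (1.05 to 1.17). The steps that follow palmitate were thus level or lower where palmitate synthase was higher.

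The sum over the 7 enzymes was close in the 2 libraries, 230 FPKM with Ad-KLF14 and 219 FPKM with Ad-GFP, while its makeup differed. Fasn made up 15.5% of that sum with Ad-KLF14 and 7.04% with Ad-GFP. Scd1 made up 16.1% and 24.9%. Ratios between genes of 1 library do not depend on how the libraries were scaled to each other. Fasn per Acaca was 4.62 with Ad-KLF14 and 2.18 with Ad-GFP, so that the ratio of these ratios was 2.11 (95% counting interval 1.88 to 2.38). Fasn per Scd1 was 0.967 and 0.282, a 3.42-fold difference (3.16 to 3.71). Acaca per Acacb was 2.55 and 2.67, with a ratio of 0.955 (0.780 to 1.17), so the balance of both carboxylases did not differ beyond counting error.

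The regulators did not share a direction either. Srebf1 stood at 15.1 FPKM with Ad-KLF14 and 21.0 FPKM with Ad-GFP, 1.39-fold lower (1.26 to 1.53). Mlxipl stood at 50.1 FPKM with Ad-KLF14 and 39.2 FPKM with Ad-GFP, a ratio of 1.28 (1.19 to 1.37). Thrsp, the smallest of the 3 in reads with 401 and 262, stood at 34.6 and 22.3 FPKM, a ratio of 1.55 (1.33 to 1.82). Mlxipl per Srebf1 was accordingly 3.32 with Ad-KLF14 and 1.87 with Ad-GFP, a 1.78-fold difference (1.58 to 2.003). Scd1 per Srebf1, in contrast, was 2.44 and 2.61, with a ratio of 0.938 (0.839 to 1.05).

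The order of the levels restates the same values and is no separate evidence. With Ad-GFP it was Me1, Scd1, Acly, Mlxipl, Thrsp, Srebf1, Fasn, Acaca, Elovl6 and Acacb, in which the counting intervals of Thrsp (19.7 to 25.2 FPKM) and Srebf1 (19.7 to 22.3 FPKM) were the only neighbouring pair that overlapped. With Ad-KLF14 it was Me1, Acly, Mlxipl, Scd1, Fasn, Thrsp, Srebf1, Acaca, Elovl6 and Acacb. There Scd1, Fasn and Thrsp could not be ordered, since the interval of Fasn (34.6 to 36.9 FPKM) overlapped those of Scd1 (35.4 to 38.6 FPKM) and Thrsp (31.3 to 38.2 FPKM). Acaca, Elovl6 and Acacb were the lowest 3 genes in both libraries.

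**Figure D2:**
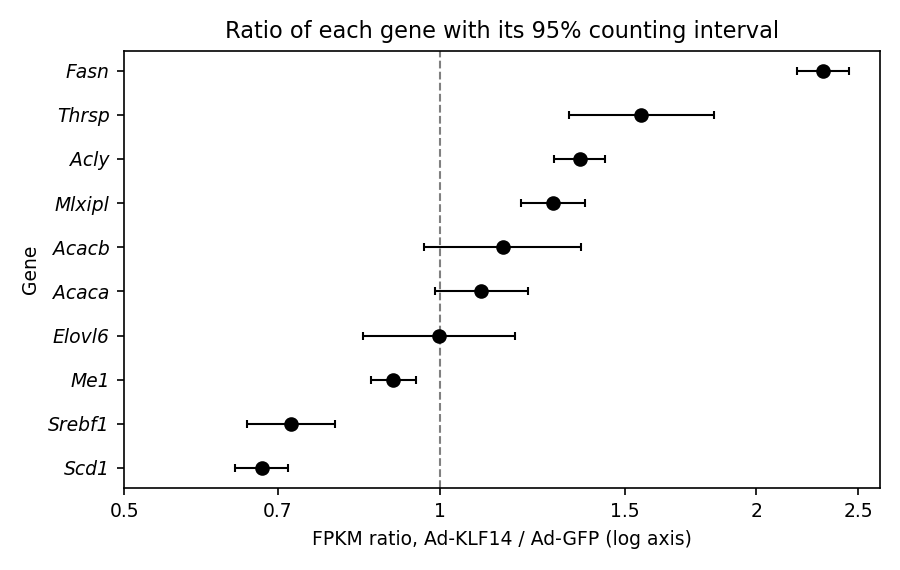
FPKM ratio of Ad-KLF14 to Ad-GFP (log axis) for each of the 10 genes, ordered by ratio, with the 95% exact Clopper-Pearson counting interval as bars. At the scaling of the deposited values, the interval lies above 1 for Fasn, Thrsp, Acly and Mlxipl. It holds 1 for Acacb, Acaca and Elovl6, and lies below 1 for Me1, Srebf1 and Scd1.

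Set against all genes, the group as a whole did not stand out. Of the 10 genes, 1 (Fasn) was at least 2-fold higher with Ad-KLF14, beside 6.37% of the 12419 genes, and 0 were at least 2-fold lower, beside 8.99%. At 1.5-fold, 2 (Fasn and Thrsp) were higher, beside 16.7% of all genes, and 0 were lower, beside 20.9%. The counting interval lay above 1 for 4 of the genes, beside 33.2% of the 12395 genes with an interval, and below 1 for 3, beside 37.1%. Intervals that leave out 1 are thus common at this depth. The median log2 ratio of the 10 genes was 0.13, that of all genes was -0.03, and the SD over all genes without Klf14 was 0.73. By direction alone, 6 of the 10 genes were higher and 4 lower, beside 48.3% and 51.7% of all genes.

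**Figure D3:**
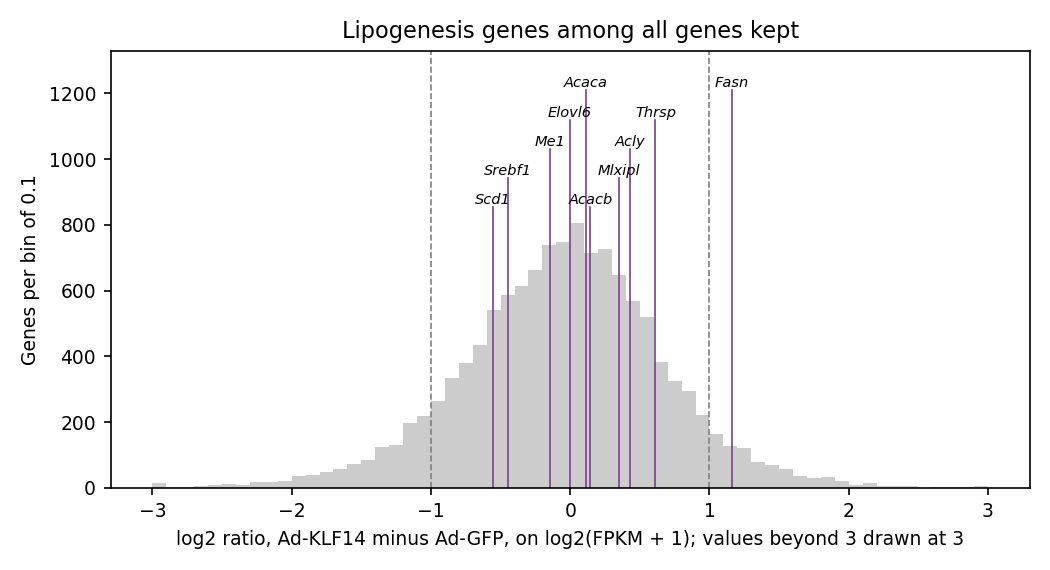
Histogram of the log2 ratio (log2(FPKM + 1) with Ad-KLF14 minus that with Ad-GFP, bins of 0.1) over the 12419 genes kept, with the 10 lipogenesis genes as vertical lines and dashed lines at 2-fold. Only Fasn, at 1.16, lies past a dashed line, and the others lie between -0.55 (Scd1) and 0.61 (Thrsp).

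Genes around the pathway were described by lists, which were chosen with earlier results of these data in view. Citrate leaves the mitochondrion through the carrier Slc25a1, and the pentose phosphate pathway supplies much of the NADPH. Of 14 genes for carbon and NADPH supply, 10 were lower with Ad-KLF14 (51.7% of all genes), 2 of them at least 2-fold (8.99%), and 4 were higher (48.3%), 0 of them by that much (6.37%). The median log2 ratio was -0.51, or -0.66 over the genes that averaged 5 FPKM or more. Slc25a1 stood at 23.5 FPKM with Ad-KLF14 and 74.3 FPKM with Ad-GFP, 3.17-fold lower (2.84 to 3.54). G6pdx, the enzyme that opens the pentose phosphate pathway, stood at 6.10 and 16.7 FPKM, 2.74-fold lower (2.31 to 3.27). Pgls, 1.95-fold lower (1.70 to 2.26), and Tkt, 1.85-fold lower (1.75 to 1.95), belong to the same pathway but make no NADPH themselves. Other genes of the list differed less or lay on the other side. Pgd, the other enzyme of that pathway that makes NADPH, was 1.20-fold lower (1.10 to 1.31). Taldo1, also of that pathway, was 1.14-fold higher (1.09 to 1.20), at 288 and 252 FPKM, and Mdh1, the cytosolic malate dehydrogenase, was 1.57-fold higher (1.47 to 1.68).

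SREBP-1 is made as a membrane protein that Scap escorts from the endoplasmic reticulum to the proteases encoded by Mbtps1 and Mbtps2, and Insig proteins hold it back. Of 12 genes for SREBP processing and partners kept, 7 were lower, 1 of them at least 2-fold, and 5 were higher, 0 of them at least 2-fold. These counts are near those of all genes, of which 51.7% were lower by any amount and, by 2-fold or more, 8.99% were lower and 6.37% higher. At 1.5-fold, 5 of the 12 were lower, beside 20.9% of all genes, and 1 was higher, beside 16.7%. Scap stood at 18.9 FPKM with Ad-KLF14 and 33.0 FPKM with Ad-GFP, 1.75-fold lower (1.61 to 1.90). Mbtps1 was 1.72-fold lower, at 14.3 and 24.7 FPKM. Srebf2, which encodes the related factor that drives cholesterol synthesis, was 1.70-fold lower (1.53 to 1.90), at 10.9 and 18.6 FPKM. Scap, Mbtps1 and Srebf2 lay on the same side as Srebf1.

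Insig1, which is both a brake on SREBP and a target of it, was 1.79-fold higher (1.41 to 2.28), at 52.6 FPKM with Ad-KLF14 and 29.4 FPKM with Ad-GFP. Insig2 lay on the other side, 1.23-fold lower (1.14 to 1.32), at 44.6 and 54.7 FPKM. Nr1h3 (LXR alpha), an activator of Srebf1 transcription, stood at 16.4 and 16.0 FPKM, a ratio of 1.03 (0.886 to 1.20). Usf2, an E-box factor known to act on the Fasn promoter, was 2.15-fold lower, at 7.93 and 17.1 FPKM. It was the gene counted as at least 2-fold lower, and it dropped under that fold on the log2 scale with a pseudocount of 5 FPKM and under each other scaling of the libraries. Usf1, also of this list, stood at 21.2 and 22.1 FPKM, a ratio of 0.959 (0.838 to 1.10).

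The 2 lists of SREBP target genes differed. Of 11 other SREBP-1 and LXR target genes kept, 7 were higher and 4 lower, with 1 at least 2-fold apart on either side, near the background of 48.3% higher by any amount and, by 2-fold or more, 6.37% higher and 8.99% lower. Lpin1, a phosphatidate phosphatase, was 2.62-fold higher (2.33 to 2.94), and Lpcat3, a phospholipid remodelling enzyme and LXR target, was 2.55-fold lower (2.25 to 2.90). Of 16 SREBP-2 target genes kept, 14 were higher with Ad-KLF14 (48.3% of all genes), 5 of them at least 2-fold (6.37%), and 1 was at least 2-fold lower (8.99%), with a median log2 ratio of 0.79. Idi1, an enzyme of isoprenoid synthesis, stood at 16.9 and 3.08 FPKM, 5.48-fold higher (4.42 to 6.85). Sqle, which makes squalene epoxide, was 3.05-fold higher (2.75 to 3.40). Hmgcs1 was listed at 0 in both libraries. The median of the cholesterol genes thus lay above that of the 10 lipogenesis genes.

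ChREBP binds DNA together with Mlx. Mlx stood at 31.1 FPKM with Ad-KLF14 and 13.0 FPKM with Ad-GFP, 2.40-fold higher (2.09 to 2.76), and so lay on the same side as Mlxipl. Of 9 genes kept in the list of the ChREBP partner and other targets, 8 were higher (48.3% of all genes), 3 of them at least 2-fold (6.37%), and 1 was lower, 0 of them at least 2-fold (8.99%). The median log2 ratio was 0.81, which became 0.44 with a pseudocount of 5 FPKM and 0.61 with no filter on low values. Txnip, a glucose-induced inhibitor of glucose uptake, was 3.72-fold higher (3.41 to 4.06), at 77.1 and 20.7 FPKM. Klf10, a glucose-induced repressor of the Krüppel-like family, was 2.29-fold higher (2.12 to 2.48). Khk, the kinase that starts fructose breakdown, was 1.87-fold higher (1.69 to 2.07). Pklr, the liver pyruvate kinase and a classical ChREBP target, was the gene on the lower side, at 42.3 FPKM with Ad-KLF14 and 73.6 FPKM with Ad-GFP.

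Acetyl-CoA carboxylase is switched off by AMP-activated kinase, and malonyl-CoA is removed by the decarboxylase Mlycd. Of 11 genes in the list for control of the carboxylase, 6 were higher and 5 lower, with 1 at least 2-fold higher and 0 lower by that much. This is near the background of 48.3% higher by any amount and, by 2-fold or more, 6.37% higher and 8.99% lower. The gene past 2-fold was Brca1, a DNA repair protein that also binds phosphorylated carboxylase, at 19.4 and 5.07 FPKM, 3.83-fold higher (3.42 to 4.30). Mlycd was 1.80-fold higher, at 19.0 and 10.6 FPKM, and Prkag1, a subunit of the kinase, was 1.74-fold higher, at 103 and 59.3 FPKM. The other kinase subunits of the list lay on both sides. Prkaa2, with a ratio of 1.19, and Prkab1, with 1.395, were higher with Ad-KLF14. Prkaa1 (0.853), Prkab2 (0.774) and Prkag2 (0.669) were lower. The counting intervals of these subunits left out 1 at the scaling of the deposited values. Mid1ip1, a paralog of Thrsp that promotes assembly of the carboxylase, stood at 46.2 and 51.9 FPKM, a ratio of 0.890 (0.819 to 0.967). Thrsp and Mid1ip1 therefore lay on opposite sides.

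**Figure D4:**
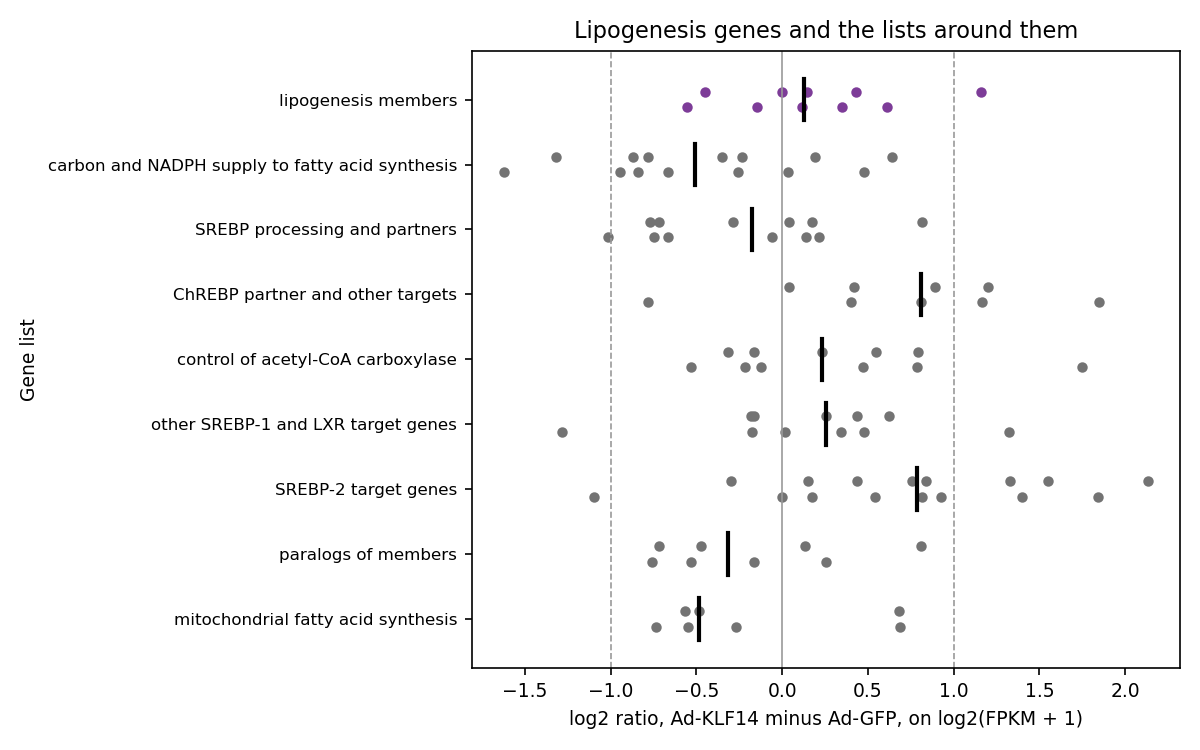
Log2 ratio (log2(FPKM + 1) with Ad-KLF14 minus that with Ad-GFP) of every gene kept in the 10-gene lipogenesis list (top row) and in 8 lists around it, 1 point a gene, with the list median as a black bar and dashed lines at 2-fold. Medians run from -0.51 for carbon and NADPH supply to 0.81 for the ChREBP list, and that of the lipogenesis genes is 0.13; with a pseudocount of 5 FPKM the ChREBP median is 0.44, below the 0.65 of the SREBP-2 targets.

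The paralogs did not share a direction. Of 8 paralogs kept of 13, 3 were higher and 5 lower, and 0 were at least 2-fold apart in either direction on the log2 scale, beside 51.7% of all genes lower by any amount and, by 2-fold or more, 6.37% higher and 8.99% lower. Mlxip, which encodes the ChREBP relative MondoA, was 2.03-fold higher (1.73 to 2.40), at 5.43 FPKM with Ad-KLF14 and 2.67 FPKM with Ad-GFP, so the paralog of Mlxipl lay on its side. Me2, the mitochondrial malic enzyme, was 1.95-fold lower, at 2.78 and 5.40 FPKM, and Elovl7 was 1.51-fold lower, at 7.45 and 11.2 FPKM. Scd2, the desaturase of brain and other tissues, was near the limit of detection at 0.181 and 0.292 FPKM, a ratio of 0.620 (0.265 to 1.39). Scd1 has near copies in the mouse genome, and how reads that match several of them were counted is not given in the sources used here.

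Marker levels of hepatocytes and other cell types are given beside these results. Of the 10 hepatocyte markers, 7 were lower and 3 higher, with 0 at least 2-fold apart in either direction, beside 51.7% of all genes lower by any amount and, by 2-fold or more, 6.37% higher and 8.99% lower. The examples with the widest differences were Tat, higher at 8.07 and 4.80 FPKM, and Cps1, lower at 2.80 FPKM with Ad-KLF14 and 4.91 FPKM with Ad-GFP. The summed level of 9 adipocyte markers was 28.9 FPKM with Ad-KLF14 and 8.82 FPKM with Ad-GFP. On the log2 scale with its pseudocount, 2 of the 4 kept were at least 2-fold higher (6.37% of all genes) and 0 lower (8.99%). Cidec, 2.31-fold higher as a plain ratio, had a log2 ratio of 0.76 on that scale. Macrophage markers summed to 206 and 138 FPKM, with a median log2 ratio of 0.08 over the 6 kept. Cd68 stood at 160 and 71.1 FPKM and Mpeg1 lay on the other side at 17.1 and 40.1 FPKM. Stellate cell and endothelial markers summed to 4.13 and 3.65 FPKM, with 1 of 10 kept and 0 at least 2-fold apart. The part of these markers in the differences of the lipogenesis genes was not tested.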

How the data were processed

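Total RNA of mouse primary hepatocytes was extracted with Trizol and made into Illumina TruSeq libraries, per the labels' protocols. Bowtie 0.12.2 and the mm8 build were used, per the submitters' processing notes. The gene models and the rule for reads that match several places are not given in the sources used here. The design text mentions retina and triplicates, neither of which appears in the sample labels, and whether a table pools cultures is not stated. The authors deposited 1 table of FPKM values per group, so no p-value is given.

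Log2 ratios used a pseudocount of 1 FPKM, and genes that averaged 1 FPKM or more were kept. Folds of named genes are plain FPKM ratios. Within a gene, the values of both libraries are whole multiples of 1 read, and 99.95% of 16944 genes gave whole read pairs (relative tolerance 1e-11). The totals were chosen because 1480 of 14122 implied gene lengths then equalled a GENCODE transcript length, against 170 for the next best choice. The reads of a gene were taken as the smallest number that gives a whole gene length, so they are lower limits and the intervals may be too wide. Where the implied length exceeded the longest transcript by over 10%, the reads were divided by the smallest number from 2 to 6 that brought it within that limit. Among the 10 genes this held for Me1, divided by 2, and among the other named genes for Txnip, Prkag1 and Elovl7. A divided length need not be whole. Intervals of a level are exact Poisson and those of a ratio exact Clopper-Pearson, both at 95% (scipy 1.17.1). The scripts were tested on simulated data.

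The 10 genes and all lists were chosen with earlier results of these data known. The rule for named genes takes all 10 genes, Klf14, up to 4 genes of a list with the largest absolute log2 ratio, and Insig1, Scap, Nr1h3, Mlx, Mid1ip1, Slc25a1 and Scd2. Pklr, Hmgcs1, Pgd, Taldo1, Mdh1, Plin1 and the markers at 0 were named after their values were seen. So were Insig2, Usf1, Prkaa1, Prkaa2, Prkab1, Prkab2 and Prkag2. Tkfc and Hsd17b8, members of the lists, had no row under these symbols. Alternatives were pseudocounts of 0.1 and 5 FPKM, no filter or a minimum mean of 5 FPKM, a fold of 1.5 and 4 scalings, of which division by the total without Klf14 reads was added after seeing the data.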

Additional observations from a re-analysis of the deposited data

How the results depend on the processing

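Of the 9 alternatives, the fold of 1.5 gives no value for a single gene. Across the other 8, Fasn kept a log2 ratio between 0.99 and 1.25, Scd1 between -0.56 and -0.46, Srebf1 between -0.47 and -0.36, Mlxipl between 0.32 and 0.44 and Thrsp between 0.54 and 0.70. Elovl6, which 7 of them kept, changed sign, from -0.004 to 0.07, and Me1 came as near to 0 as -0.06. Counting intervals are given at the scaling of the deposited values only. Under each other scaling that of Acaca would lie above 1. When scaled to the sum without Klf14, that of Acacb would also lie above 1, and that of Me1 would hold 1. With a pseudocount of 5 FPKM, 295 genes were at least 2-fold higher and 467 lower, and 0 of the lipogenesis genes were higher by that fold (Fasn at 0.99). With a fold of 1.5, 2079 genes were higher and 2598 lower, with 2 of the lipogenesis genes higher. With a mean of at least 5 FPKM required, the median of the lipogenesis genes was 0.23, since fewer genes were kept. Of 303 values of the other lists under the alternatives, 272 stayed within the limits set (medians within 0.1, counts within 1.5 times) and 31 moved. Most of these values are counts, for which no reversal was defined, and a count that stayed at 0 was taken as within the limits. Among the medians further than 0.1 from 0, 0 reversed. With 1 library per group no library could be left out and no paired analysis was possible because each group holds 1 library. Depth limits the lowest genes: Acacb and Elovl6 rest on 254 to 292 reads.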

Other observations

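Mitochondria hold a separate, bacterial-type pathway of fatty acid synthesis that supplies the precursor of lipoic acid. Of 7 of its genes measured, 5 were lower and 2 higher with Ad-KLF14, with 0 at least 2-fold apart in either direction and a median log2 ratio of -0.48, beside 51.7% of all genes lower by any amount and, by 2-fold or more, 6.37% higher and 8.99% lower. Mcat, which loads malonyl groups onto the mitochondrial carrier protein, stood at 9.71 FPKM with Ad-KLF14 and 16.8 FPKM with Ad-GFP, 1.73-fold lower. Aasdhppt, which attaches the phosphopantetheine arm to carrier proteins and also to Fasn, was 1.55-fold lower, at 7.34 and 11.4 FPKM. Mecr, the last reductase of the cycle, was 1.64-fold higher, at 42.0 and 25.7 FPKM, and Lias, the lipoic acid synthase, was 1.63-fold higher, at 33.6 and 20.6 FPKM.

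Among the adipocyte markers, Lipe, the hormone-sensitive lipase, stood at 12.8 FPKM with Ad-KLF14 and 2.58 FPKM with Ad-GFP, 4.97-fold higher (95% counting interval 3.98 to 6.28). Pparg, a transcription factor of fat storage, stood at 11.5 and 2.76 FPKM, 4.16-fold higher (3.11 to 5.65). The lipid droplet gene Cidec stood at 2.63 and 1.14 FPKM, while Fabp4 stood at 1.68 FPKM with Ad-KLF14 and 2.34 FPKM with Ad-GFP.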
